A study of Mus musculus with 6 samples.

Results

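The 10 genes described here belong to the early response to stimulation and were measured in mouse alveolar macrophages, the phagocytes that live in the airspace of the lung. They are the AP-1 genes Fos, Fosl2, Jun, Junb and Jund, the related factors Atf3 and Maff, the zinc finger factor Egr1, the early protein gene Ier2 and the phosphatase gene Dusp1. Each was found by its symbol in the deposited table, which gave 10 of 10539 listed genes. All cells were C57BL/6 alveolar macrophages made to overexpress the transcription factor C/EBPβ. One group of 3 libraries, labelled CEBPβ, had this overexpression alone per the labels, and the other 3, labelled CEBPβ-A, also received an adenovirus for A20, the ubiquitin-editing brake on NF-κB signalling encoded by Tnfaip3. The sources used here do not say how C/EBPβ was introduced, which virus or control virus the CEBPβ cells received, or the time after infection. The labels name no separate animals or cultures, so p-values cover only the variation among these 6 libraries, part of which may be technical.

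AP-1 is a family of dimers of basic leucine zipper (bZIP) proteins. Fos proteins bind DNA mainly as partners of Jun proteins, whereas Jun proteins can also pair with each other and with ATF proteins. In macrophages, MAP kinases set off by pattern recognition, cytokine receptors or cell stress act on factors already present, and the Fos, Jun, Egr1 and Ier2 genes are then transcribed within minutes and shut off again. Dusp1, made in the same burst, removes phosphate from the MAP kinases and so closes the loop. The same genes are known to respond to the isolation and handling of cells.

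Promoter stretches are shown for 4 members, Fos, Jun, Maff and Dusp1, that carry elements of the cyclic AMP response (CRE) type, the site of ATF, CREB and Jun dimers, since members with these letters are compared here. Atf3 carries TGACGT too, in letters that run into bases that GENCODE M21 places in an exon, and its stretch is not shown. Positions count back from −1, the base before the RefSeq start, bases are given 5′ to 3′ on the gene's strand in GRCm38.p6, and capitals mark TGACGT, TGACGTCA or the variant TGACATCA. Fos (chr12:85473690-85473889, plus strand) has a TGACGT that begins at −66. Jun (chr4:95052223-95052422, minus strand) has a TGACATCA from −45. Maff (chr15:79347320-79347519, plus strand, upstream of the second of its 3 RefSeq starts) has a full TGACGTCA from −29. Dusp1 (chr17:26508520-26508719, minus strand) has a TGACGT from −191 and a TGACGTCA from −143; here 47 bases next to the start, which GENCODE M21 places in an exon, are left out.
Fos: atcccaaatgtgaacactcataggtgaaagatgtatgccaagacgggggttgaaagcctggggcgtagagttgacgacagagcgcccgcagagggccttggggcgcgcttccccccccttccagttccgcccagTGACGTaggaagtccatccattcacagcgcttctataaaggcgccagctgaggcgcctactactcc
Jun: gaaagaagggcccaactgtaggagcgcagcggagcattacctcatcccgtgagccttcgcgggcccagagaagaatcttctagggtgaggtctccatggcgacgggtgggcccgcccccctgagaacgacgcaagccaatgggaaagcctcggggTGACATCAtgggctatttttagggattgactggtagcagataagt
Maff: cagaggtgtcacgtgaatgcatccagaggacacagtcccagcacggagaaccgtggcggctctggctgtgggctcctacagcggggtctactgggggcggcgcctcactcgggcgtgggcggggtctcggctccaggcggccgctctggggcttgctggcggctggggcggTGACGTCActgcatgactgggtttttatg
Dusp1: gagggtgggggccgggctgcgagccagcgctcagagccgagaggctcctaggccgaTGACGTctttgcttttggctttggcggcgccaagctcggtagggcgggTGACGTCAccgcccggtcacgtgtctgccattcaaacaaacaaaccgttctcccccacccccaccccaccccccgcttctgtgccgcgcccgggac

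Of the 10 members, 8 matched the RefSeq promoter table, with 10 promoters in all, and both strands of the 250 bases before each start were searched. Egr1 and Ier2 had no entry there, so their promoters were not searched, nor were bases further upstream of the other members. TGACGT was in 4 of the 10 member promoters, from Fos, Atf3, Maff and Dusp1, against 6.47% of all 32851 promoters. The full TGACGTCA, which contains TGACGT, was in 2, from Maff and Dusp1, against 1.55%. TGACATCA was in 2, from Jun and Maff, against 2.93%. The AP-1 site TGACTCA and the CArG box of the serum response factor were found in 0 of the 10 member promoters within this window, against 4.46% and 1.47%. The C/EBP element TTGCNNAA was in 2, from Jund and Maff (9.56% of all promoters), and the NF-κB element in 3, from Fos, Fosl2 and Maff (7.25%). A match is a description of letters and says nothing of binding in these cells.

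Values are FPKM, fragments scaled by gene length and by each library's mapped total, so levels can be set side by side across genes. All 12 alveolar macrophage markers in the fixed list were present. Their summed level was 7200 to 8070 FPKM in the CEBPβ libraries and 7660 to 8640 in the CEBPβ-A libraries. Most of it was Chil3, at 4399 to 5472 FPKM over the 6 libraries. Car4, Ear1, Ear2 and Pparg were higher in every CEBPβ-A library than in any CEBPβ library (log2 differences 0.52, 0.41, 0.35 and 0.14). Itgax was lower in the same way (−0.11), and the other markers of this list overlapped. None had a limma adjusted p under 0.05, and 16.8% of all genes tested had groups without overlap. No T, NK, B or endothelial marker of the lists was among the rows analysed. The rule by which genes were listed is not known here, so a marker missing from these rows need not be unexpressed. Tnfaip3 itself was not higher in the libraries labelled CEBPβ-A (7.94, 15.5 and 7.32 FPKM against 8.76, 17.7 and 19.2; limma adjusted p = 0.606). An A20 sequence of another species may not be counted at that gene, so each direction given below is between libraries as labelled. Pairs of libraries correlated at 0.973 to 0.990 on log2(FPKM + 1), and CEBPβ-A replicate 3 was far from the rest on principal component 1 (25.7, the other scores being −11.7 to −0.095). FPKM keeps no read depth here, since low values showed no whole-read steps, so precision rests on the 3 libraries per group alone.

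The 10 genes spanned a wide range of levels. Atf3, at a mean of 90.9 FPKM over the 6 libraries, and Jund, at 84.7, were the highest, at percentiles 96.0 and 95.7 of all listed genes. Their ranges overlapped, so their order is not settled. Junb followed at 52.3 FPKM and Ier2 at 28.4, each clear of its neighbours in every library. Fosl2 (20.8), Fos (20.4) and Jun (16.99) formed a middle set in which neighbours overlapped. Maff (7.42), Egr1 (5.03) and Dusp1 (4.77) lay lowest, near the middle of all listed genes (percentiles 53.7, 42.1 and 40.6), again with overlapping neighbours. The Jun family summed to 142 to 171 FPKM per library and the 3 listed Fos family genes, Fos, Fosl2 and Fosl1, to 40.9 to 45.4. The ratio of these sums was 3.62 ± 0.242 in the CEBPβ libraries and 3.64 ± 0.431 in those labelled CEBPβ-A (SD, n = 3 each), a difference smaller than the spread between replicates.

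**Figure D1:**
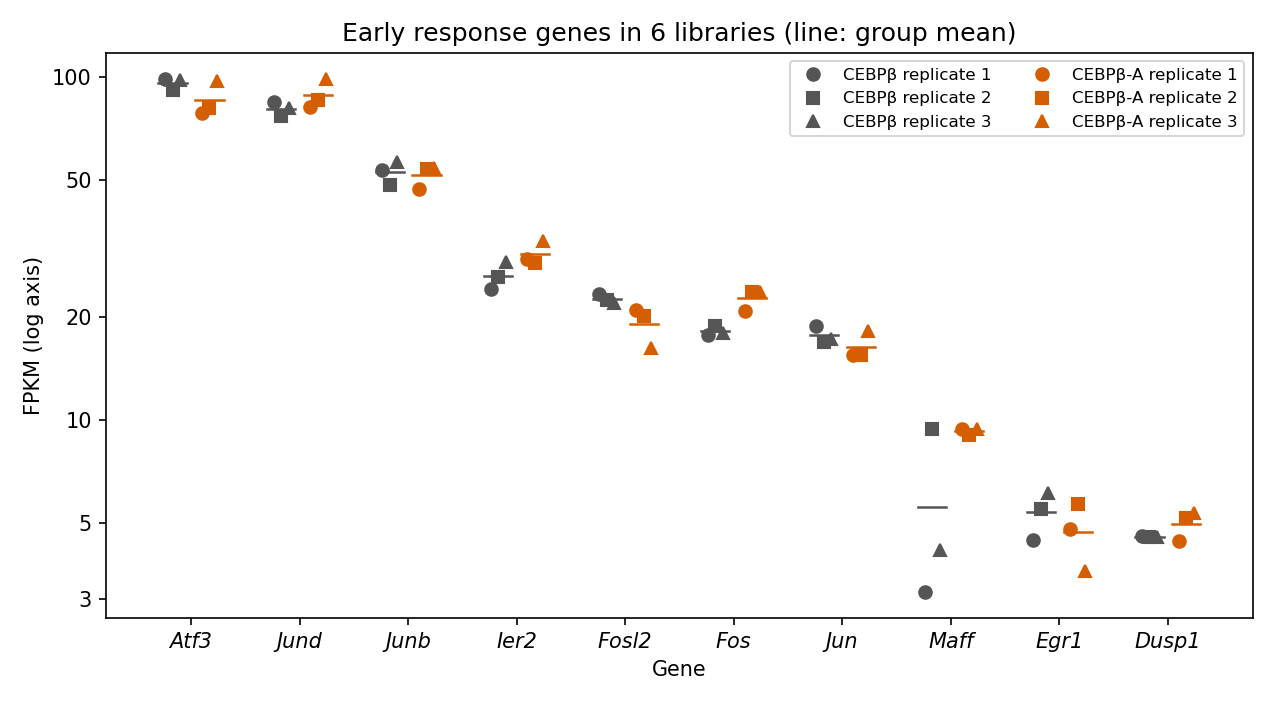
FPKM of each gene in each library on a log axis, ordered by the mean over 6 libraries; symbols mark replicates, colours mark the 2 groups and short lines the group means. Fos lies higher in all 3 CEBPβ-A libraries, Fosl2 lower, and Maff is low in 2 libraries, both labelled CEBPβ.

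None of the 10 genes passed the threshold between the groups. In limma on log2(FPKM + 1), fitted over 9617 genes with a mean of at least 1 FPKM, 0 of the 10 had a Benjamini-Hochberg adjusted p under 0.05, where 0.052% of all genes did (5 genes). At an unadjusted p under 0.05 there were 2 of 10, Fos and Maff, against 8.18% of all genes. The groups did not overlap for 2 of 10, Fos upward and Fosl2 downward, against 16.8% of all genes (7.89% upward and 8.86% downward). The share without overlap lies close to the background, and counts of 2 genes support nothing particular to the members. Of the 10 fold changes, 5 were positive and 5 negative, with a median of 0.039 on the log2 scale against −0.013 for all genes tested.

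Among the Fos proteins, which bind mainly as partners of Jun, the pair of members had means that differed in opposite directions. Fos (ENSMUSG00000021250.13, chr12:85473890-85477273) had 17.6, 18.8 and 17.9 FPKM in CEBPβ replicates 1, 2 and 3 and 20.8, 23.6 and 23.5 in CEBPβ-A replicates 1, 2 and 3. Every value labelled CEBPβ-A lay above every value labelled CEBPβ. The means were 22.6 ± 1.58 and 18.1 ± 0.615 FPKM (SD, n = 3 each), a ratio of 1.25. On the log2(FPKM + 1) scale the difference was 0.31 (SE 0.080, unadjusted 95% interval 0.12 to 0.49), and it did not pass over all genes (limma adjusted p = 0.588).

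Fosl2, which encodes the Fos-related protein FRA2 (ENSMUSG00000029135.10, chr5:32135801-32157842), had 23.3, 22.4 and 21.9 FPKM in the CEBPβ libraries and 20.9, 20.1 and 16.2 in those labelled CEBPβ-A. The groups did not overlap, and replicate 3 of CEBPβ-A was the lowest of all. The log2 difference was −0.24 (SE 0.10, limma adjusted p = 0.588), and −0.13 without CEBPβ-A replicate 3. Fosl2 has the longest coding transcript of the 10 members in GENCODE M21, at 6537 bases, against 1522 to 3189 for the other members with a single one. With a trend of log2 values on transcript length removed from each library, the Fosl2 difference was −0.074, whereas that of Fos was 0.31.

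**Figure D2:**
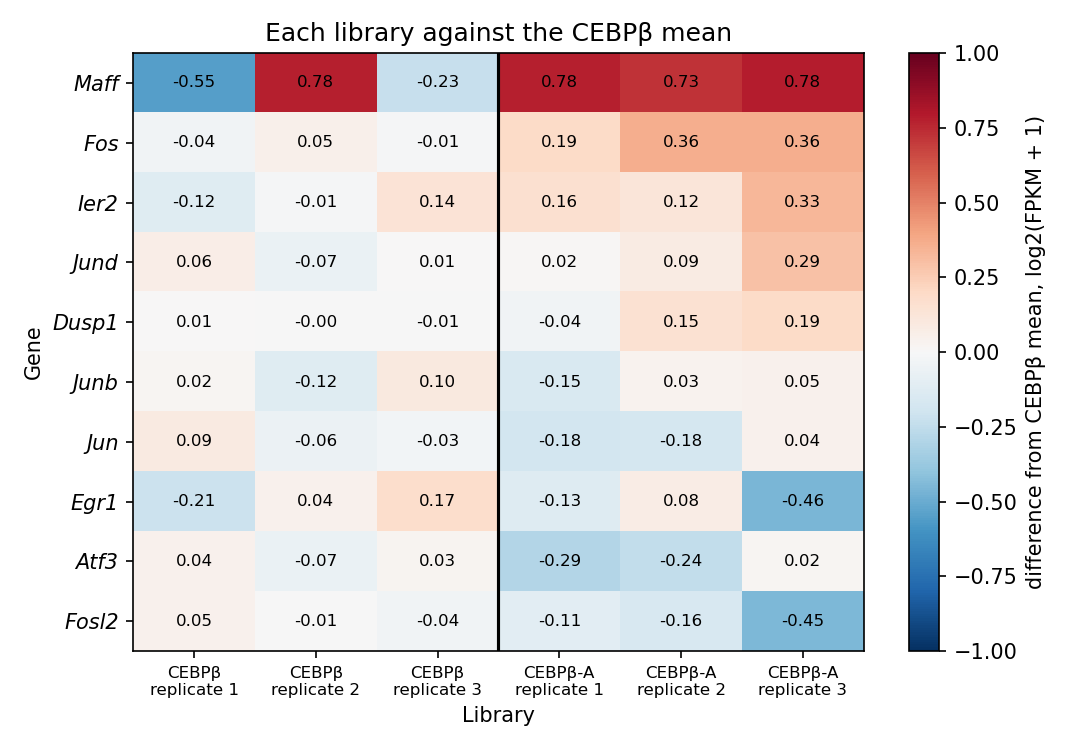
Difference of each library from the mean of the 3 CEBPβ libraries, on the log2(FPKM + 1) scale, with genes in rows and libraries in columns; red is higher and blue lower. The 3 CEBPβ-A values of Fos are 0.19, 0.36 and 0.36, while Egr1 and Fosl2 have their lowest values, −0.46 and −0.45, in CEBPβ-A replicate 3.

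Of the Jun genes, whose products are the main partners of Fos proteins, none had non-overlapping groups. Jun (ENSMUSG00000052684.4, chr4:95049034-95052222), the strongest activator of the family, had 18.8, 16.9 and 17.2 FPKM in CEBPβ and 15.4, 15.4 and 18.2 in CEBPβ-A. Replicates 1 and 2 of CEBPβ-A were the lowest of the 6, and replicate 3 lay inside the range of CEBPβ. The log2 difference was −0.11 (unadjusted 95% interval −0.32 to 0.11, limma adjusted p = 0.680). It was −0.18 without CEBPβ-A replicate 3 (adjusted p = 0.908), where the groups did not overlap, and −0.062 to −0.070 without CEBPβ replicate 1, CEBPβ-A replicate 1 or CEBPβ-A replicate 2. Junb (ENSMUSG00000052837.6, chr8:84974484-84978718), often a weaker activator that can restrain Jun, had 53.5, 48.3 and 56.4 FPKM against 47.2, 53.9 and 54.4. Its groups overlapped almost fully, at −0.024 (interval −0.23 to 0.19, limma adjusted p = 0.933), and the sign turned without CEBPβ replicate 3 or CEBPβ-A replicate 1.

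Jund (ENSMUSG00000071076.6, chr8:70698949-70700616), the Jun gene that is held at a steady level in many resting cells, had 84.3, 76.8 and 81.1 FPKM in CEBPβ and 81.5, 85.7 and 98.9 in CEBPβ-A. Only the value of CEBPβ-A replicate 3 stood well above the others. The log2 difference was 0.13 (interval −0.079 to 0.34, limma adjusted p = 0.620), and 0.050 without that library. A gene on the opposite strand overlaps exons of Jun, Junb, Jund and Dusp1 in GENCODE M21. The kit was a stranded one per the labels, but the sources used here do not say whether counting used the strand, so reads of those partners may be included.

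Atf3, a stress-induced factor that dampens Toll-like receptor responses in mouse macrophages (ENSMUSG00000026628.13, chr1:191170296-191218039), had the highest mean of the 10. It had 98.9, 91.7 and 98.2 FPKM in the CEBPβ libraries and 78.3, 81.1 and 97.4 in those labelled CEBPβ-A. Replicates 1 and 2 of CEBPβ-A lay below every CEBPβ value, and replicate 3 was within the CEBPβ range. The log2 difference was −0.17 (SE 0.096, limma adjusted p = 0.591). Without CEBPβ-A replicate 3 it was −0.27 (adjusted p = 0.668), over 1.5 times as large, and the groups did not overlap.

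Maff, a small Maf protein that lacks an activation domain and pairs with CNC factors such as NRF2 (ENSMUSG00000042622.13, chr15:79347541-79359072), varied most between libraries. It had 3.15, 9.38 and 4.16 FPKM in CEBPβ replicates 1, 2 and 3, and 9.39, 9.02 and 9.42 in CEBPβ-A. Its highest library was 3 times its lowest, against 1.19 to 1.69 times for the other 9 genes. The high value of CEBPβ replicate 2 fell within the CEBPβ-A range, so the groups overlapped. The means were 9.28 ± 0.226 and 5.56 ± 3.35 FPKM (SD, n = 3 each), and the log2 difference of 0.76 (SE 0.30, unadjusted 95% interval 0.068 to 1.46) did not pass (limma adjusted p = 0.588).

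Single CEBPβ libraries moved the size of the Maff difference. Without CEBPβ replicate 2 it was 1.15 (SE 0.12, limma adjusted p = 0.0818), and without CEBPβ replicate 1 it was 0.49 (adjusted p = 0.855). Neither passed. Maff has 4 coding transcripts of 633 to 1958 bases in GENCODE M21, the widest relative span of the 10 members, and RefSeq starts at 3 places. FPKM divides by a length, so the assignment of fragments to a short or a long transcript moves the gene's value; the part of this in the Maff values was not tested.

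**Figure D3:**
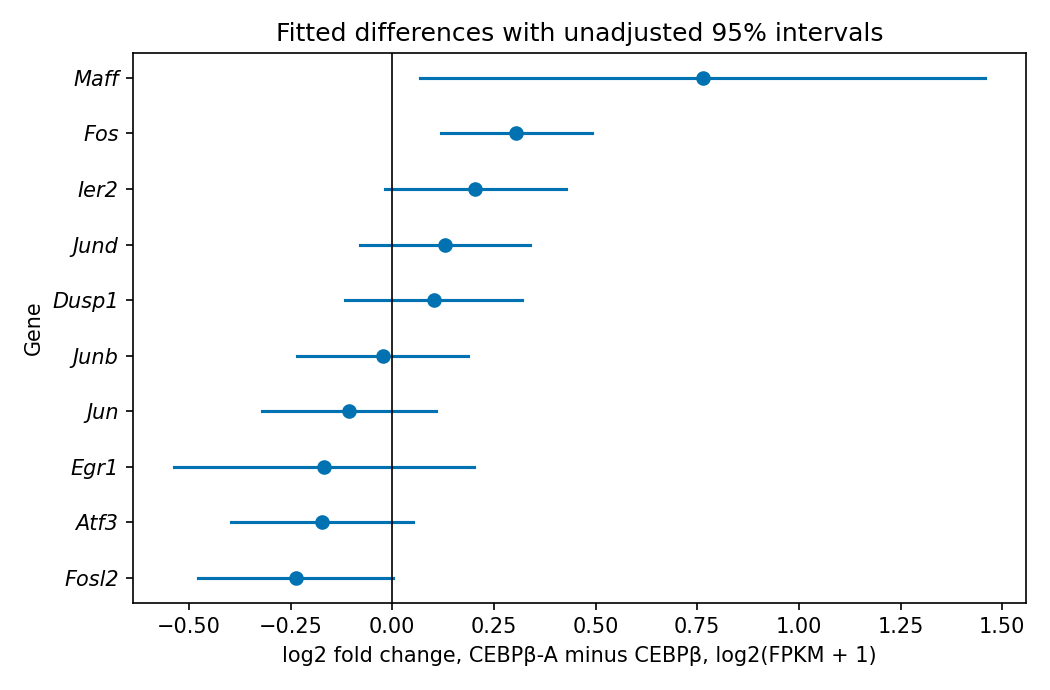
Fitted log2 difference of each gene (point), CEBPβ-A minus CEBPβ, with the unadjusted 95% interval from limma (line). The intervals of Maff (0.068 to 1.46) and Fos (0.12 to 0.49) lie above 0, that of Fosl2 reaches 0.0016, and the other 7 span 0.

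Egr1, the zinc finger factor of macrophage differentiation and growth signals (ENSMUSG00000038418.7, chr18:34859823-34864984), had 4.46, 5.51 and 6.13 FPKM in CEBPβ and 4.80, 5.68 and 3.62 in CEBPβ-A. The groups overlapped, with the lowest value in CEBPβ-A replicate 3. The log2 difference was −0.17 (interval −0.54 to 0.20, limma adjusted p = 0.701). Without CEBPβ-A replicate 3 it was −0.025, and over all single libraries left out it ran from −0.29 to −0.025.

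Ier2, an early response protein of the nucleus (ENSMUSG00000053560.4, chr8:84661331-84662852), had 24.0, 26.1 and 28.9 FPKM in CEBPβ and 29.5, 28.6 and 33.3 in CEBPβ-A. The groups overlapped by 1 pair of values, CEBPβ replicate 3 and CEBPβ-A replicate 2. The log2 difference was 0.20 (SE 0.096, limma adjusted p = 0.588), and 0.14 without CEBPβ replicate 1 or without CEBPβ-A replicate 3. Dusp1, the feedback phosphatase (ENSMUSG00000024190.6, chr17:26505590-26508519), had 4.58, 4.55 and 4.53 FPKM in CEBPβ, the tightest set of the 10, and 4.41, 5.18 and 5.34 in CEBPβ-A. Its groups overlapped through CEBPβ-A replicate 1, at a log2 difference of 0.10 (interval −0.11 to 0.32, limma adjusted p = 0.696). This was 0.17 without CEBPβ-A replicate 1, where the groups did not overlap, and 0.058 without CEBPβ-A replicate 3.

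No library was high or low for all 10 genes. CEBPβ-A replicate 3 held the highest value of 4 members (Jund, Maff, Ier2 and Dusp1) and the lowest of 2 (Fosl2 and Egr1), and CEBPβ-A replicate 1 held the lowest of 4. The median difference of the 10 from the CEBPβ mean was −0.072, 0.081 and 0.12 on the log2 scale in CEBPβ-A replicates 1, 2 and 3, so its sign was not shared by the 3 libraries. Members with the CRE-type letters TGACGT differed both ways, with Fos, Maff and Dusp1 at 0.31, 0.76 and 0.10 and Atf3 at −0.17, all log2 differences that did not pass.

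The remaining bZIP genes showed no call either. Of 30 listed relatives 24 were tested, with 0 past the threshold. At an unadjusted p under 0.05 there were 2, both lower, where 8.18% of all genes had such a p in either direction. The median of the relatives was −0.027. By smallest p they were Nfe2l1, a CNC factor of proteasome genes (9.15 ± 2.01 against 12.3 ± 1.14 FPKM, log2 difference −0.41, limma adjusted p = 0.588), Atf6, a sensor of the unfolded protein response (12.97 ± 2.14 against 16.5 ± 0.946, −0.33), and Fosl1, which encodes FRA1 (1.56 ± 0.314 against 1.15 ± 0.137, 0.25; SD, n = 3 each). The most abundant relatives were Atf4, the factor of the integrated stress response, at 95.7 ± 9.74 FPKM against 88.0 ± 5.16, and Nfe2l2, which encodes NRF2, at 87.0 ± 2.34 against 92.6 ± 2.94. Xbp1, another unfolded protein factor, followed at 51.6 ± 2.07 against 47.0 ± 1.72. None of these 6 passed.

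Other early response genes held no call. Of 34 tested, 21 were positive (4480 of all 9617), 0 passed, and 6 had an unadjusted p under 0.05 (5 higher and 1 lower), where 8.18% of all genes did. The median was 0.048 against −0.013 for all genes, and 0.0032 with 19 positive without CEBPβ-A replicate 2. The smallest p belonged to Gadd45a, a growth arrest gene that binds stress kinases, which stood at 5.80, 7.04 and 7.15 FPKM in CEBPβ-A and 9.13, 9.13 and 10.1 in CEBPβ (log2 difference −0.45, SE 0.10, limma adjusted p = 0.588). Id3 and Id1, inhibitors of basic helix-loop-helix factors, were higher, at 66.1 ± 6.80 against 53.9 ± 0.173 FPKM and 19.8 ± 3.11 against 15.4 ± 0.489 (0.29 and 0.33, SD, n = 3 each). The groups did not overlap for these 3 genes, which were named for their smallest p, a choice that favours such genes. Of the 34, the groups did not overlap for 6 upward and 2 downward, against 16.8% of all genes in either direction.

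The kinases upstream had 13 of 34 positive, 0 past the threshold and a median of −0.034. At an unadjusted p under 0.05 there was 1, where 8.18% of all genes had such a p. Map3k7, which encodes TAK1, the kinase above JNK, p38 and IKK, stood at 5.83, 6.01 and 5.93 FPKM in CEBPβ-A and 10.6, 11.8 and 7.21 in CEBPβ, with no overlap (log2 difference −0.63, SE 0.16, limma adjusted p = 0.588). It was named for its smallest p, a choice that favours such genes. Of the 34, the groups did not overlap for 1 upward and 3 downward, against 16.8% of all genes in either direction. Rps6ka3, which encodes the ribosomal S6 kinase RSK2, was at −0.38, also not past the threshold. Of 12 tested SRF, TCF and CREB inputs, 11 were negative, 0 passed and 0 had an unadjusted p under 0.05, with a median of −0.10. Over all 9617 genes tested 5137 were negative, with a median of −0.013. The histone acetylases Ep300 and Crebbp and the SRF partner Elk4 led by p, at −0.33, −0.25 and −0.15. With the length trend removed 8 of 12 were negative (median −0.066), and without CEBPβ-A replicate 3 the median was −0.027. Quantile normalization left 7 of 12 negative (median −0.048) and median-of-ratios scaling 9 of 12 (median −0.091).

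Of 9 tested MAP kinase phosphatases and Sprouty-type inhibitors 0 passed, 1 had an unadjusted p under 0.05 and 3 were positive, with a median of −0.054. Dusp5, a nuclear ERK phosphatase, stood at 24.1 ± 2.10 FPKM against 20.4 ± 1.30 (0.23), and the Ras pathway inhibitors Spred1 and Spred2 at −0.31 and −0.16. Of 12 tested AP-1 target genes 0 passed, 5 had an unadjusted p under 0.05 (2 higher and 3 lower, against 8.18% of all genes), and the median was −0.014. Tnf, the inflammatory cytokine, stood at 22.1, 23.9 and 23.9 FPKM in CEBPβ-A and 28.3, 31.0 and 31.7 in CEBPβ (log2 difference −0.37, SE 0.077, limma adjusted p = 0.561). Mmp14, a membrane metalloprotease, was at −0.53 and Plaur, the urokinase receptor, at 0.27. Genes known as AP-1 targets thus had means that differed both ways. The groups did not overlap for these 3, which were named for their smallest p, a choice that favours such genes. Of the 12, the groups did not overlap for 2 upward and 3 downward, against 16.8% of all genes in either direction.

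**Figure D4:**
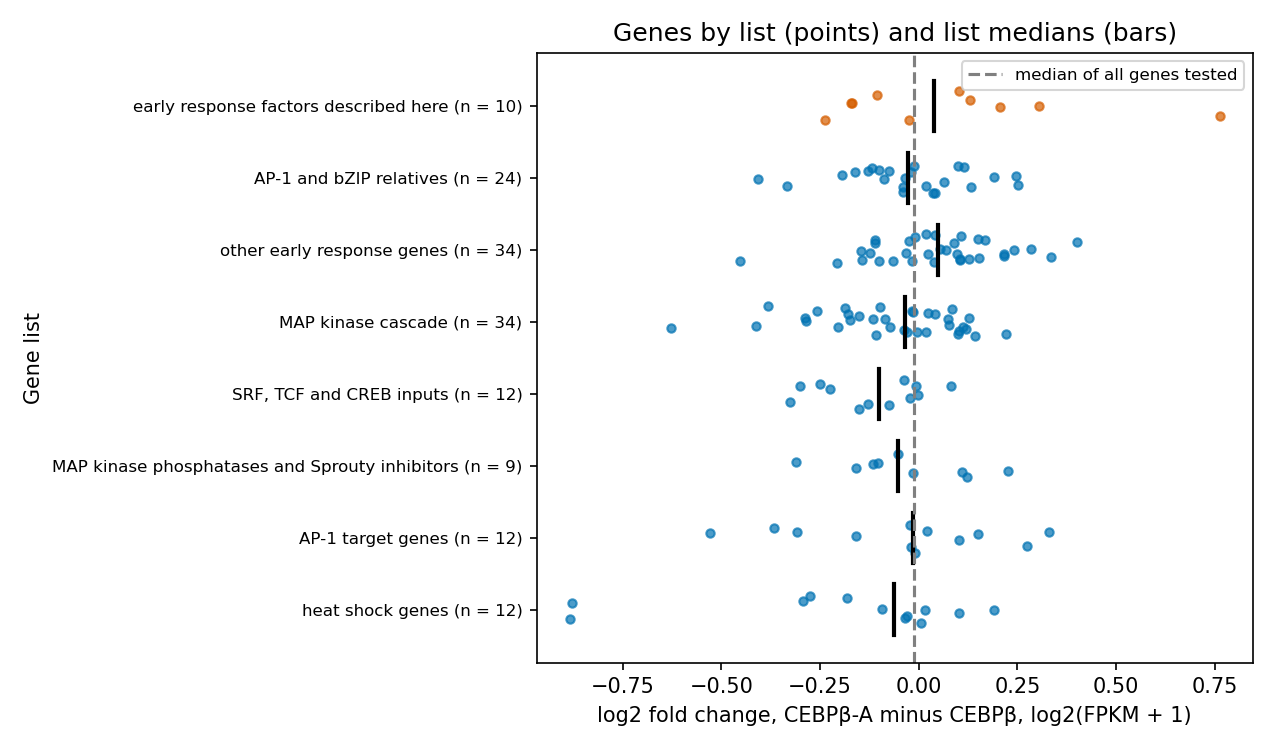
Log2 difference, CEBPβ-A minus CEBPβ, of the tested genes of each list (points, spread vertically only to be visible), with the list median (black bar) and the median of all 9617 genes (dashed line at −0.013). The 10 early response factors lie on both sides, from −0.24 to 0.76, and no point passed the threshold.

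Heat shock genes, which are also known to respond to handling, had differences of both signs. Of 12 tested, 8 were negative, 0 passed, 3 had an unadjusted p under 0.05, all lower (8.18% of all genes in either direction), and the median was −0.064. The 4 positive genes were Hspe1 at 0.19, Hspa8 at 0.10, Hspd1 at 0.016 and Hsp90aa1 at 0.0051 on the log2 scale. Hspa1b, an inducible HSP70 gene, stood at 4.86, 4.29 and 5.49 FPKM in CEBPβ-A and 11.1, 8.08 and 10.5 in CEBPβ (log2 difference −0.88, limma adjusted p = 0.203). Hspa1a, a near-identical copy that may share its reads, stood at 3.42 ± 0.581 against 7.18 ± 1.48 FPKM, and their cochaperone Hsph1 at 8.01 ± 0.116 against 10.04 ± 0.530 (SD, n = 3 each). The part of handling in either set of values was not tested.

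Markers of other cells were measured beside these genes. Of 7 neutrophil markers 4 were among the rows analysed. Their summed level was 260 to 318 FPKM in CEBPβ and 348 to 381 in CEBPβ-A, without overlap. S100a8 and Mmp8 made up most of that sum. Of the 4, only S100a8 had groups without overlap (286 to 303 FPKM in CEBPβ-A against 199 to 251 in CEBPβ), where 16.8% of all genes did. Mmp8 overlapped (50.8 to 64.8 against 46.1 to 55.4). The receptors Csf3r (8.66 to 10.9 FPKM against 9.85 to 11.6) and Cxcr2 (2.97 to 3.83 against 2.98 to 3.46) also overlapped, and none of the 4 was at 0. Epithelial markers, 3 of 8, summed to 29.1 to 39.3 FPKM in CEBPβ and 33.3 to 67.1 in CEBPβ-A, highest in replicate 3, mainly through Scgb1a1. Monocyte markers, 2 of 5, summed to 52.9 to 57.3 and 53.5 to 61.1. Nearly all of this was F10 (52.2 to 60.6 FPKM over the libraries), with Ly6c2 at only 0.239 to 0.654. The 1 fibroblast marker of 5, Pdgfra, lay at 0.684 to 1.00 and 0.551 to 0.657. Their part in the values above was not tested, and in bulk RNA fewer cells of a type and less RNA per cell cannot be told apart.

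Outside the 10 members, the profiles most like Fos over the 6 libraries, by the root mean square difference of centred log2(FPKM + 1), were those of Borcs7 (0.0225), Timm50 (0.0397), Sh2b2 (0.0401), Ift46 (0.0471) and Pbx3 (0.0513). All 5 had non-overlapping groups and log2 differences of 0.22 to 0.34, not past the threshold. Both traits follow largely from the choice by likeness to Fos in these same libraries, and 16.8% of all genes had non-overlapping groups. The profiles most like Jun were those of Hikeshi (0.0409), Cfap43 (0.0446), Phlpp1 (0.0456), Ahsa2 (0.0463) and Mms19 (0.0479). They had overlapping groups and log2 differences of −0.12 to −0.032, which the choice by likeness to Jun likewise favours.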

How the data were processed

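RNA was sequenced from 3 CEBPβ and 3 CEBPβ-A libraries. The authors deposited 1 table of FPKM values of protein-coding genes, per the file headers. Per the submitters' processing notes the genome build is GRCm38; the sources used here do not give the aligner, counting program, annotation release or listing rule. Depth is unknown: at the best unit at most 31.4% of low values of genes with 1 transcript fell within 0.1 of a whole read. Values were tested with limma (version 3.58.1, R 4.3.3) on log2(FPKM + 1), with an intensity trend and no covariate, over genes with a mean of at least 1 FPKM, two-sided, Benjamini-Hochberg adjusted over all genes, threshold 0.05. This scale understates changes of low genes. The script was tested on simulated data. Means and SDs are of FPKM. Transcript lengths come from GENCODE M21 (99.5% of tested genes) and promoters from RefSeq. The members and lists were chosen with earlier results of these data known. Named from each list were the 3 genes of smallest p, also the 3 most abundant bZIP relatives, and the 5 profiles nearest to Fos and to Jun. One gene that this rule names is not reported here. The alternatives were pseudocounts, filters, scalings, limma settings, the replicate number as a block, removal of the length trend, and each library left out.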

Additional observations from a re-analysis of the deposited data

How the results depend on the processing

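No member passed the threshold in any of the 17 alternatives, and each of the 10 kept its sign except Junb, which turned to 0.025 without CEBPβ replicate 3 and to 0.041 without CEBPβ-A replicate 1 (range over single libraries left out −0.084 to 0.041); Dusp1 could be tested in 16, its mean being under 5 FPKM. Fos ranged from 0.28 to 0.36 on the log2 scale, and Fos upward and Fosl2 downward were the members without overlap in every alternative. Quantile normalization added Atf3 (3 members). With single libraries left out 3 to 4 members did not overlap, where 22.2% to 34.0% of all genes did not, since fewer values are compared. The median of the members ran from −0.024 (mean of at least 5 FPKM, 9 members tested) to 0.11 (without CEBPβ-A replicate 1). With quantile normalization it was 0.0014. The 5 genes past the threshold over the whole table became 0 with a mean of at least 5 FPKM (522 at an unadjusted p under 0.05), and 2 with quantile normalization. It was 3, 4 and 2 without CEBPβ replicates 1, 2 and 3 and 1, 3 and 9 without CEBPβ-A replicates 1, 2 and 3; the causes were not tested. Whether the replicate numbers pair the libraries is not settled here. Same-numbered deviations from the group means correlated at 0.099, 0.247 and 0.259, and differently numbered ones at −0.245 to 0.087. Each library correlated best with its own number, a hint from the data, while the main fit treated the libraries as unpaired. With the replicate block 1 gene passed and 0 members, with 4 members at an unadjusted p under 0.05 against 2. Over all 9617 genes, 1285 had such a p with the block against 787 without it, so the rise was not particular to the members. Of the other named genes, sign changes were as follows. With quantile normalization Hikeshi, Cfap43 and Ahsa2 turned to 0.023, 0.010 and 0.011. With the length trend removed Cfap43, Phlpp1 and Ahsa2 turned to 0.045, 0.041 and 2.48e-05. With single libraries left out Hikeshi ran from −0.12 to 0.016, Cfap43 from −0.10 to 0.0093, Ahsa2 from −0.13 to 0.028 and Cebpb from −0.20 to 0.051.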
